A study of Mus musculus with 16 samples.

Results

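The collagen genes are the 44 genes, of 24411 gene symbols in the files, whose symbol is Col, a number, the letter a and a number, with nothing after it. They were followed in RNA from the spinal cord of 16 female C57BL/6J mice. The SCI + Atorvastatin group (n = 7) and the SCI + Vehicle group (n = 7) had a 0.25 mm lateral compression of the cord at 12 weeks of age. Daily atorvastatin at 10 mg/kg, or its vehicle of DMSO, PEG 400, Tween 80 and saline, was given for 4 weeks from 2 weeks after the injury. The Uninjured Control group (n = 2) had neither injury nor treatment, so that injury and the vehicle cannot be told apart in comparisons with it. All mice were perfused with saline, and a 5 mm piece of cord around the lesion, or around the same level in controls, was taken 6 weeks after the injury in the SCI groups. The labels give 12 weeks of age for all mice and no later age for the controls, and the study's text gives the controls an older age that is still below that of the SCI mice at isolation, so that age and injury cannot be told apart either. The labels and the text also differ on the day of isolation.

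Collagens are built of 3 chains wound into a triple helix, which needs glycine at the start of each amino acid triplet because no other side chain fits inside the helix. Fibrillar collagens (types I, II, III, V, XI, XXIV and XXVII) assemble into the rope-like fibrils of scar, tendon, bone and cartilage. Type IV collagen forms the sheet-like network of basement membranes, which in the cord surrounds blood vessels and lines the boundary with the meninges. The other types form beaded filaments (VI), sit on fibril surfaces, span the plasma membrane or bridge basement membranes and fibrils. In the healthy cord collagen is mostly found in vessels, meninges and nerve roots, and after injury fibroblast-like cells and pericytes lay it down in the fibrotic part of the scar. Here 11 genes were fibrillar, 6 were basement membrane collagens and 27 belonged to other types.

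The repeat that defines the family can be read in the reference coding sequences, in which every glycine codon starts with GG. Coding sequences were taken from GENCODE transcripts on GRCm38, and a run was counted as 3 or more GGN codons in a row, each 3 codons after the previous. Among the 11 fibrillar genes the longest unbroken run held at least 216 such triplets (median 338), with 2 to 5 runs per gene. In the 6 basement membrane genes the longest run held 39 to 66 triplets (median 43.5) and the repeat was split into 23 to 27 runs. In the 27 other genes the longest run held 23 to 113 triplets (median 45). The following stretches of 90 coding bases, read 5′ to 3′ with the GGN codons of the repeat in capitals, show the unbroken repeat of the main scar fibrils and the breaks of the basement membrane chains.
Col1a1, codons 675 to 704, middle of its longest run: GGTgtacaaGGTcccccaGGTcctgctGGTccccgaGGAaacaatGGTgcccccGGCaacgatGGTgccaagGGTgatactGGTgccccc
Col3a1, codons 680 to 709, middle of its longest run: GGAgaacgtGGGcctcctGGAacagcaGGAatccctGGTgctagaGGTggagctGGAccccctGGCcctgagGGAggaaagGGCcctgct
Col4a1, codons 209 to 238, across a break: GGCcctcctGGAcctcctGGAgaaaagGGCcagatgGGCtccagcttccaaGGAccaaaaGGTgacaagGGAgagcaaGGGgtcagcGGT
Col4a2, codons 220 to 249, across a break: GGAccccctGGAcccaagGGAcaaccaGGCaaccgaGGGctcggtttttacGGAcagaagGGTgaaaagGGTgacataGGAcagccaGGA
On GRCm38 these genes lie at chr11:94936224-94953042 on the plus strand (Col1a1), chr1:45311538-45349706 on the plus strand (Col3a1), chr8:11198423-11312826 on the minus strand (Col4a1) and chr8:11312805-11449287 on the plus strand (Col4a2). The annotated starts of Col4a1 and Col4a2 face each other and overlap, the start of Col4a2 lying 21 bases inside Col4a1.

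Libraries held 14823292 to 25579826 counts on genes, and collagens took 0.0726% to 0.345% of them. The control libraries held counts for 12356 and 12732 genes, against 16399 to 19338 in the SCI mice, at total counts within the range of the SCI libraries. All 44 collagens had at least 1 count somewhere. In the controls 22 had counts in both mice, 16 were at 0 in 1 mouse and 6 were at 0 in both. The library of SCI + Vehicle replicate 4 had the lowest total and that of SCI + Vehicle replicate 7 the fewest genes among SCI mice, and these were also the mice of that group with the lowest sums of collagen counts, so the calls are also given without them. The labels do not say whether mice shared a litter or a day of surgery.

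TPM, which the authors normalized for gene length, allow levels of different genes to be compared. Some collagens with counts were listed at a TPM of 0, namely 2 and 5 in the controls, 5 in SCI + Vehicle replicate 7 and 1 in each of 3 other SCI mice, for example Col5a1 with 210 counts in control 1 and Col9a2 with 584 counts in control 2. The sums and orders below use these values as deposited. The summed TPM of all 44 collagens was 320.5 and 247.6 in the Uninjured Control mice, 287 to 910 (median 671) with SCI + Vehicle and 669 to 1375 (median 830) with SCI + Atorvastatin. Every SCI + Atorvastatin mouse lay above both controls, while the lowest SCI + Vehicle mouse lay between them. In these whole-tissue samples, more collagen-producing cells and more RNA per cell cannot be told apart. The fibrillar sum was 123.2 and 153.2 TPM in the controls, 113 to 538 (median 327) with SCI + Vehicle and 301 to 814 (median 451) with SCI + Atorvastatin. The basement membrane sum was 28.7 and 17.6 TPM in the controls, 40.4 to 77.7 (median 75.2) with SCI + Vehicle and 69.2 to 109 (median 82.5) with SCI + Atorvastatin, so that every injured mouse was above both controls. For the other types the sum was 169 and 76.8 TPM in the controls, 134 to 307 (median 283) with SCI + Vehicle and 283 to 515 (median 299) with SCI + Atorvastatin. These sums describe the tissue and were given no test.

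**Figure D1:**
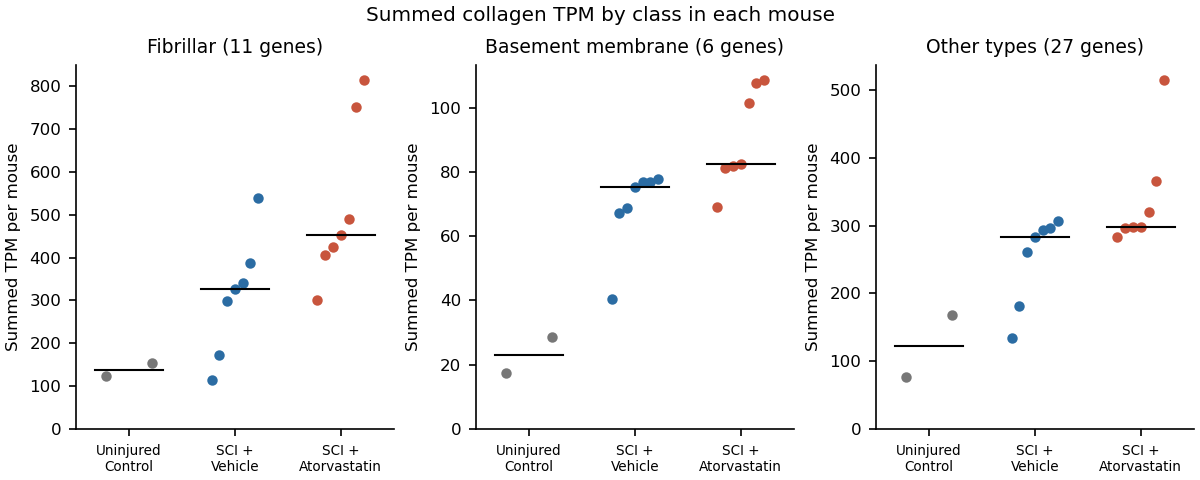
Summed TPM (vertical axis, linear from 0) of the fibrillar, basement membrane and other collagens in each mouse, with a point per mouse and a line at the median of each group (Uninjured Control n = 2, SCI + Vehicle n = 7, SCI + Atorvastatin n = 7). Basement membrane sums of all 14 SCI mice lie above both controls, whereas fibrillar sums of SCI + Vehicle run from 113 to 538 TPM across the control values of 123.2 and 153.2.

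The order of the levels differed between injured and uninjured cord. In the controls the highest means were those of Col1a2 (46.8 and 41.4 TPM), Col11a2 (20.7 and 44.7), Col18a1 (44.1 and 13.6), Col23a1 (44.8 and 9.85) and Col1a1 (15.04 and 32.6), and apart from Col1a2 the control values of each gene were too far apart to order them. With SCI + Atorvastatin the means of Col1a1 (141 ± 72.9 TPM, SD, n = 7), Col1a2 (140 ± 58.3) and Col3a1 (107 ± 46.9) came highest, followed by Col6a2 (54.5 ± 24.2) and Col6a1 (46.3 ± 24.3). With SCI + Vehicle the same chains of types I and III led, Col1a2 at 80.9 ± 46.7 TPM, Col1a1 at 78.1 ± 57.8 and Col3a1 at 46.6 ± 30.4. Within each SCI group these leading genes differed by less than their spread between mice. Col1a1, Col1a2 and Col3a1 together made up 29.1% to 51.3% (median 42.4%) of collagen TPM with SCI + Atorvastatin, 15.1% to 45.6% (median 31.8%) with SCI + Vehicle, and 23.6% and 35.1% in the controls.

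The next question was which collagens differed from the Uninjured Control group. Of the 44 genes, the 41 whose mean TPM passed 1 in some group were tested; Col6a5, Col6a6 and Col17a1 were not. Between mice the values below are CPM (library-scaled counts with edgeR's TMM factors), and a gene was called when its Benjamini-Hochberg adjusted p over all 16091 tested genes was below 0.05 and its change above 25%, which is 0.322 on the log2 scale. In SCI + Vehicle vs. Uninjured Control 12 of 41 collagens were called higher, where 19.9% of all tested genes were, and 0 lower, where 9.91% of all genes were. With SCI + Atorvastatin set against the same controls, 20 of 41 collagens were called higher, where 24.9% of all genes were, and 0 lower, where 14% of all genes were. Without the threshold on adjusted p, 0 and 1 collagens were lower at an unadjusted p below 0.05 in edgeR, and DESeq2, limma on log2(TPM + 1) and voom called 0 lower as well. The median log2 fold change of the 41 was 1.26 with vehicle and 1.69 with atorvastatin, beside 0.17 and 0.21 for all tested genes. Setting the genes at 0 in both controls at their lower bound could not move these medians, since every such bound lay above them.

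Both comparisons share the same 2 controls, so they are not independent. The 12 genes called with vehicle were also called with atorvastatin. The other 8 called with atorvastatin were Col1a1, Col1a2, Col3a1, Col4a1, Col5a1, Col5a2, Col6a2 and Col6a3. Being called in 1 comparison and not in the other does not show a difference between the treatments, which was tested directly further on. These calls rest on edgeR's assumption that the 2 controls vary as the SCI mice do. With voom and a quality weight for each group, chosen after the data were seen, 0 collagens were called in either comparison (smallest adjusted p 0.14 with vehicle and 0.369 with atorvastatin), while the estimates stayed above 0 for 36 and 37 of 41. Of all 16091 genes, this voom fit called 15 and 18 higher. Without Uninjured Control replicate 1, estimates were above 0 for 35 of 41 collagens with vehicle and 34 with atorvastatin. Without replicate 2 they were above 0 for 30 and 31. Such fits leave 1 control mouse, so nothing is drawn from the number of collagens called in them. Without SCI + Vehicle replicates 4 and 7 together, 2950 of all 16091 genes were called higher with vehicle. Of the collagens 17 were, of which 11 were among the 12. The 6 others were Col1a1 (log2 fold change 2.01), Col1a2 (0.90), Col3a1 (2.06), Col4a1 (0.84), Col5a1 (1.74) and Col6a2 (2.36), all of them also called with atorvastatin, and Col4a5 was lost.

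**Figure D2:**
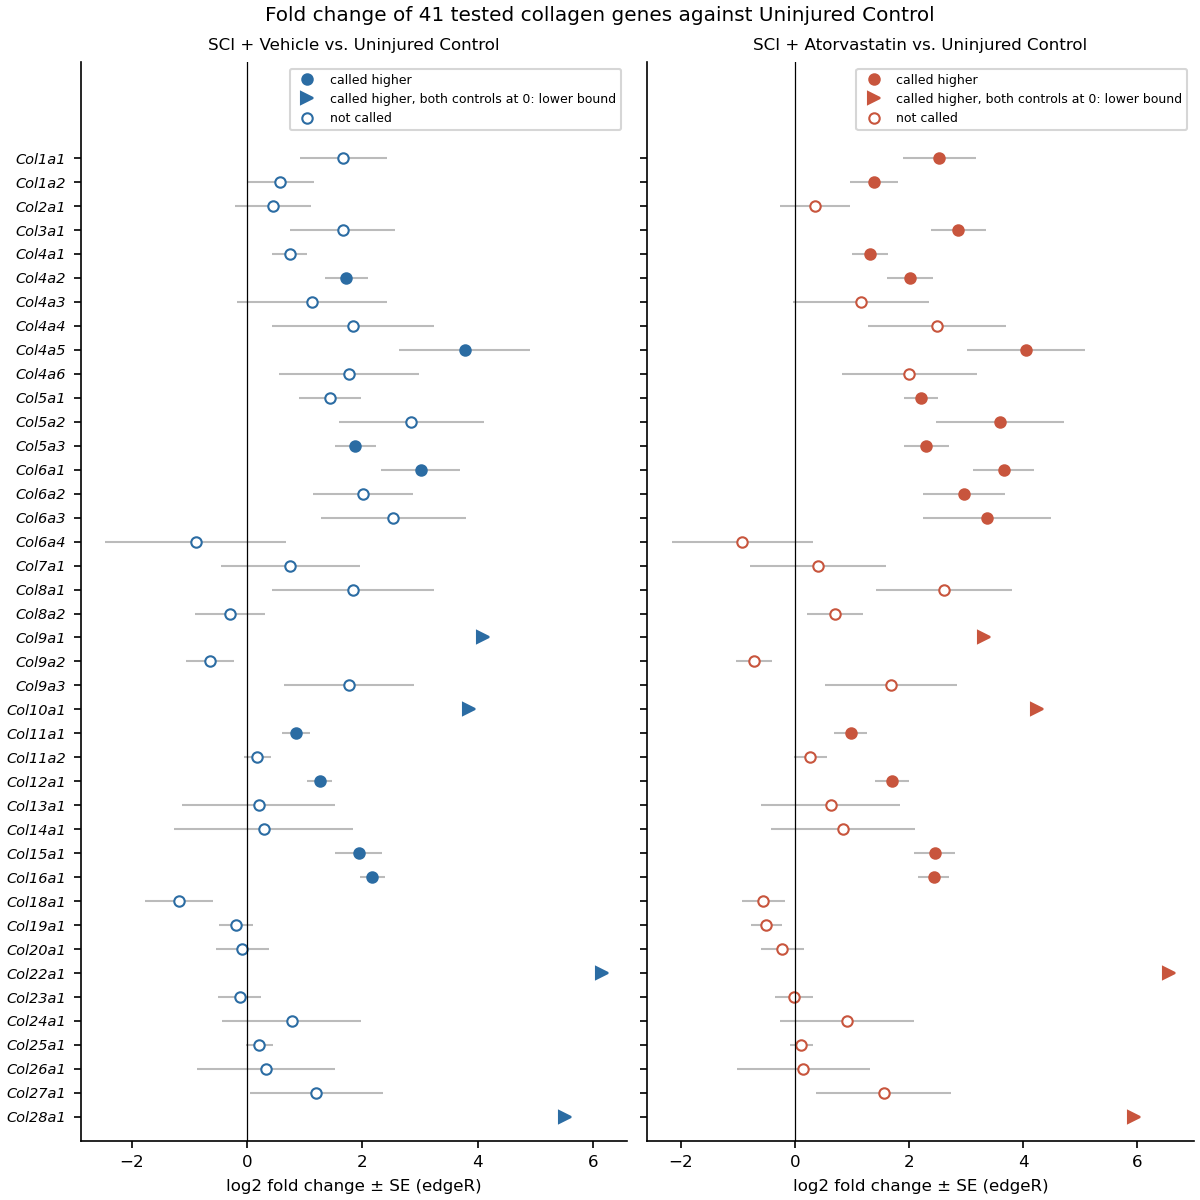
Log2 fold change (horizontal axis) of the 41 tested collagens (rows) in SCI + Vehicle and SCI + Atorvastatin against Uninjured Control, with bars for the SE of edgeR. Filled points were called higher (12 and 20 genes), open points were not called, and triangles are lower bounds for called genes with 0 counts in both controls.

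Among the fibrillar collagens, all 11 estimates lay above 0 in both comparisons, with 2 called in SCI + Vehicle (Col5a3 and Col11a1) and 7 in SCI + Atorvastatin, beside 19.9% and 24.9% of all tested genes. The vehicle share of the class was thus near that of all genes. Col1a1, which encodes the α1 chain of type I collagen, stood at 32.5 and 70.4 CPM in the controls, at 47.7 to 387 (median 149) with SCI + Vehicle and at 105 to 586 (median 278) with SCI + Atorvastatin. All SCI + Atorvastatin mice and 5 of 7 SCI + Vehicle mice were above both controls. The log2 fold change of Col1a1 was 1.67 (SE 0.75, adjusted p = 0.117) with vehicle and 2.53 (SE 0.63, adjusted p = 0.00986) with atorvastatin.

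Its partner Col1a2, the α2 chain of type I collagen, was already high in the controls at 134 and 114 CPM. It ran from 56.8 to 347.5 CPM (median 185) with SCI + Vehicle and from 188 to 575 (median 296) with SCI + Atorvastatin. Vehicle mice therefore lay on both sides of the controls, and the log2 fold change of Col1a2 was 0.57 (SE 0.58, adjusted p = 0.495) with vehicle and 1.39 (SE 0.42, adjusted p = 0.0242) with atorvastatin; with all 3 groups in 1 fit the latter was not called. The ratio of Col1a1 to Col1a2 TPM was 0.321 and 0.788 in the controls and 0.587 to 1.19 in the SCI mice.

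Col3a1, which encodes the chain of type III collagen of elastic and early scar tissue, measured 32.8 and 39.8 CPM in the controls. It ranged from 12.9 to 233 CPM (median 132) with SCI + Vehicle and from 154 to 460 (median 264) with SCI + Atorvastatin. The lowest values of Col3a1 with vehicle, 12.9 and 22.6 CPM in replicates 7 and 4, fell below both controls. Its log2 fold change was 1.66 (SE 0.91, adjusted p = 0.199) with vehicle and 2.87 (SE 0.48, adjusted p = 0.00113) with atorvastatin.

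Type V collagen is incorporated into type I fibrils and limits their diameter. Col5a1 gave 10.5 and 18.6 CPM in the controls, 13.7 to 52.7 (median 48.6) with SCI + Vehicle and 52.9 to 87.2 (median 66.1) with SCI + Atorvastatin. Every SCI + Atorvastatin mouse was above every other mouse for this gene in CPM, though not in TPM. The log2 fold change of Col5a1 was 1.44 (SE 0.53, adjusted p = 0.0644) with vehicle and 2.21 (SE 0.30, adjusted p = 0.000327) with atorvastatin. Col5a2 had 12.4 and 0 CPM in the controls, 9.33 to 72.6 (median 45.5) with SCI + Vehicle and 49.9 to 119 (median 59.5) with SCI + Atorvastatin, and was called in the latter (log2 fold change 3.60, SE 1.13, adjusted p = 0.0285), a call lost without SCI + Atorvastatin replicate 7. Col5a3, a chain found in mixed type V molecules, rose in both groups, from 9.79 and 5.98 CPM to 22.6 to 41.9 (median 26.8) with vehicle and 22.4 to 60.6 (median 38.6) with atorvastatin. For Col5a3 no SCI mouse overlapped the controls, and its log2 fold changes were 1.88 (SE 0.36, adjusted p = 0.00317) and 2.31 (SE 0.39, adjusted p = 0.00115).

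Type XI collagen is best known from cartilage, where it initiates type II fibrils. Col11a1 rose by a small amount, from 61.8 and 29.1 CPM to 66.9 to 93.9 (median 81.3) with vehicle and 62.6 to 112 (median 90.7) with atorvastatin, log2 fold changes of 0.85 (SE 0.25, adjusted p = 0.0264) and 0.98 (SE 0.29, adjusted p = 0.0215). The call of Col11a1 was lost without Uninjured Control replicate 2. Col11a2 did not differ by the test, with 51.6 and 109 CPM in the controls against 77.0 to 104 (median 95.5) and 71.9 to 135 (median 93.3). The other fibrillar genes, Col2a1, Col24a1 and Col27a1, were not called in either comparison. Markers of bone and cartilage, 10 genes with 4 at 0 in both controls, summed to 45.6 and 159 CPM in the controls and to 67.4 to 115 in the SCI mice, and their part in these values was not tested.

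**Figure D3:**
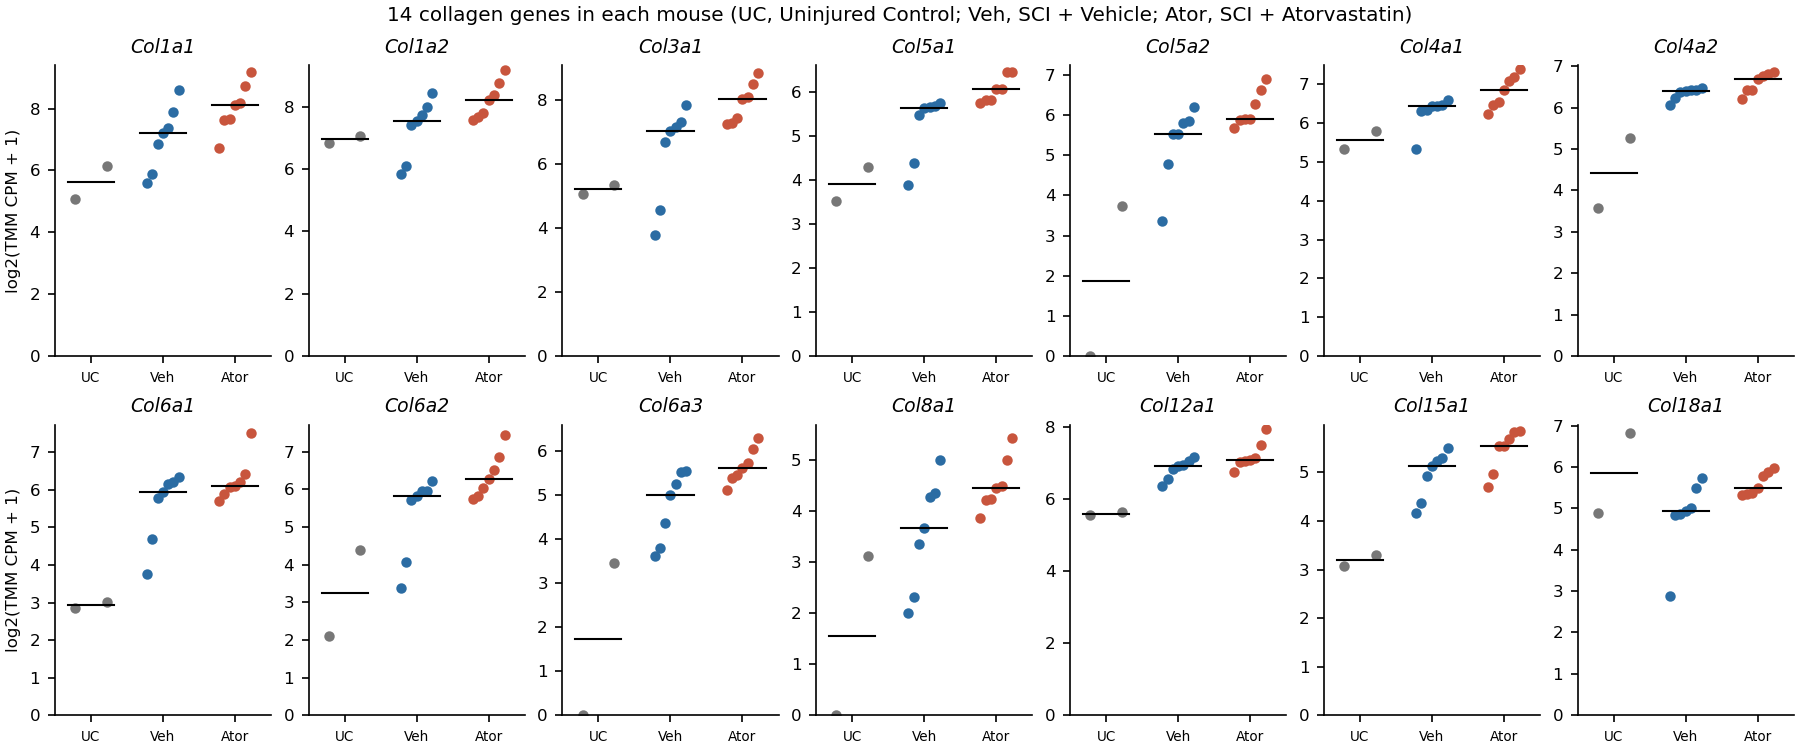
Level of 14 collagen genes as log2(CPM + 1), with a point per mouse and a line at the median of each group. All 14 SCI mice are above both controls for Col4a2, Col6a1, Col12a1 and Col15a1, whereas the lowest SCI + Vehicle mice lie at or below a control for Col1a1, Col1a2, Col3a1 and Col5a1.

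The basement membrane collagens all had estimates above 0, and 2 of 6 were called with vehicle (Col4a2 and Col4a5) and 3 with atorvastatin (also Col4a1), where 19.9% and 24.9% of all genes were. Col4a1 and Col4a2 encode the chains of the type IV network found in nearly all basement membranes. Col4a1 was at 55.0 and 39.3 CPM in the controls, 39.0 to 96.4 (median 85.6) with SCI + Vehicle and 74.8 to 167 (median 115) with SCI + Atorvastatin. Replicate 7 of SCI + Vehicle was the only SCI mouse not above both controls for Col4a1, whose log2 fold change was 0.74 (SE 0.30, adjusted p = 0.0865) with vehicle and 1.32 (SE 0.31, adjusted p = 0.00762) with atorvastatin.

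Col4a2 had 37.6 and 11.01 CPM in the controls, 66.0 to 87.5 (median 83.6) with SCI + Vehicle and 73.3 to 115 (median 103) with SCI + Atorvastatin. All 14 SCI mice exceeded both controls, with log2 fold changes of 1.72 (SE 0.37, adjusted p = 0.00573) and 2.01 (SE 0.40, adjusted p = 0.00297). Because Col4a2 was the lower of the pair in uninjured cord, the ratio of Col4a1 to Col4a2 TPM was 2.32 and 2.60 in the controls, against 0.527 to 1.41 (median 0.927) with SCI + Vehicle and 0.832 to 1.56 (median 1.18) with SCI + Atorvastatin. In TPM the control ratios lay above all 14 ratios of SCI mice, a description without a test. In CPM they did not. There SCI + Atorvastatin replicate 3 (166.9 for Col4a1 and 111.6 for Col4a2) had a higher ratio than control 1 (55.0 and 37.6). Col4a5, a chain of the type IV network that is mutated in Alport syndrome of the kidney, had 0 and 4.58 CPM in the controls against 12.3 to 43.0 (median 33.5) with vehicle and 32.6 to 43.5 (median 38.5) with atorvastatin, with log2 fold changes of 3.77 (SE 1.13, adjusted p = 0.0288) and 4.06 (SE 1.03, adjusted p = 0.0107). Leaving out SCI + Vehicle replicate 2, 3, 5 or 6 ended the vehicle call of Col4a5. With a mean of 0 TPM in the controls, Col4a5 passed the filter on mean TPM only through the SCI groups. Its calls therefore support nothing about the class. Col4a3, Col4a4 and Col4a6 were each at 0 in 1 control and were not called. Endothelial markers, 10 genes of the cells that lie on this membrane, summed to 273 and 215 CPM in the controls, 159 to 279 (median 265) with vehicle and 218 to 321 (median 298) with atorvastatin, and those of smooth muscle or pericytes to 120 and 80.1, 186 to 308 (median 274) and 223 to 507 (median 297). The part of these cells in the type IV values was not tested.

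Among the other types, 24 of 27 genes were tested, and 8 were called higher with vehicle and 10 with atorvastatin, where 19.9% and 24.9% of all genes were. Type VI collagen makes beaded microfibrils next to basement membranes and cells from its Col6a1, Col6a2 and Col6a3 chains. Col6a1 had 6.23 and 7.02 CPM in the controls, 12.6 to 79.9 (median 60.1) with SCI + Vehicle and 51.1 to 181 (median 67.3) with SCI + Atorvastatin, and no SCI mouse overlapped the controls. Its log2 fold changes were 3.01 (SE 0.69, adjusted p = 0.00807) and 3.66 (SE 0.54, adjusted p = 0.000526). Col6a2 had 20.0 and 3.31 CPM in the controls, 9.42 to 73.2 (median 55.4) with vehicle and 52.8 to 175 (median 76.8) with atorvastatin. Col6a3 had 10.0 and 0 CPM, 11.3 to 46.0 (median 31.2) and 33.8 to 77.2 (median 48.2). Both were called with atorvastatin only (Col6a2, log2 fold change 2.96, SE 0.72, adjusted p = 0.00858; Col6a3, 3.37, SE 1.12, adjusted p = 0.0364), and the call of Col6a3 was lost when any SCI + Atorvastatin mouse was left out. With a control mean of 0.53 TPM, Col6a3 passed the filter on mean TPM only through the SCI groups. Its call therefore supports nothing about the class. Summed TPM of the 6 type VI genes was 13.8 and 6.87 in the controls, 13.5 to 99.1 (median 79.6) with vehicle and 77.4 to 226 (median 96.3) with atorvastatin.

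Fibril-associated collagens bind the surface of fibrils and link them to their surroundings. Col16a1, which is found near basement membranes and fibrils, had the smallest p of the collagens with counts in both controls. It rose from 15.3 and 25.6 CPM to 78.6 to 104 (median 93.9) with SCI + Vehicle and 88.3 to 140 (median 107) with SCI + Atorvastatin, log2 fold changes of 2.17 (SE 0.22, adjusted p = 0.00012) and 2.43 (SE 0.27, adjusted p = 0.000114). All 14 SCI mice lay above both controls, with SCI + Vehicle replicates 4 and 7 at 85.1 and 78.6 CPM. Col12a1, which decorates type I fibrils, rose from 46.4 and 48.8 CPM to 81.4 to 143 (median 120) with vehicle and 106 to 248 (median 135) with atorvastatin, log2 fold changes of 1.26 (SE 0.22, adjusted p = 0.00172) and 1.70 (SE 0.30, adjusted p = 0.00139). Its groups did not overlap the controls either.

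The multiplexins Col15a1 and Col18a1 sit in basement membrane zones and release antiangiogenic fragments, endostatin in the case of Col18a1. Col15a1 rose from 8.89 and 7.43 CPM to 17.0 to 44.3 (median 33.9) with vehicle and 25.1 to 56.7 (median 45.8) with atorvastatin, log2 fold changes of 1.93 (SE 0.41, adjusted p = 0.00574) and 2.45 (SE 0.36, adjusted p = 0.000493). Col18a1 showed no such change, with 113 and 28.8 CPM in the controls, 6.43 to 51.8 (median 29.5) with vehicle and 39.0 to 61.6 (median 43.6) with atorvastatin. Its log2 fold changes were -1.18 (SE 0.58, adjusted p = 0.156) and -0.55 (SE 0.38, adjusted p = 0.287), and every SCI mouse was below the higher control. The direction for Col18a1 depended on which control was kept, since with atorvastatin its log2 fold change was 0.75 without Uninjured Control replicate 1 and -1.23 without replicate 2. Col23a1, a transmembrane collagen, had the same pattern, with 111 and 31.8 CPM in the controls against 43.4 to 87.9 (median 67.0) and 62.8 to 79.5 (median 70.4). Col8a1, a short-chain collagen of vessel walls, had 0 and 7.66 CPM in the controls, 2.99 to 31.1 (median 11.7) with vehicle and 13.6 to 41.9 (median 20.7) with atorvastatin, and was not called (log2 fold change 1.84, SE 1.40, adjusted p = 0.356, and 2.62, SE 1.19, adjusted p = 0.109).

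Of the 12 collagens called in both comparisons, 4 had 0 counts in both controls, namely Col22a1, a collagen of tissue junctions such as those of muscle and tendon, Col28a1, described around peripheral nerve, Col10a1, the network collagen of hypertrophic cartilage, and Col9a1, a cartilage fibril-associated chain. They passed the filter on mean TPM only through an SCI group, Col10a1 through atorvastatin alone and Col9a1 through vehicle alone, so they had to differ to be tested and their calls support nothing about the class. Col4a5 and Col6a3, called as given above, also passed it only through the SCI groups. Among the 31 collagens whose mean TPM passed 1 in all 3 groups, 7 were called higher with vehicle and 14 with atorvastatin. Of all 12559 genes that passed this stricter filter, 1279 and 1806 were called higher. Fold changes of the genes at 0 are lower bounds against 3 counts in a control library, taken as 0.151 CPM, the value of the control where it is higher. Col22a1 measured 5.41 to 16.1 CPM with SCI + Vehicle and 9.95 to 21.7 CPM with SCI + Atorvastatin, at least 71.5-fold and 94.2-fold higher. For Col28a1 the counts were 10 to 382 and 121 to 306, at least 45.5-fold and 61.7-fold higher. Col10a1 held only 8 to 102 and 26 to 107 counts (at least 14.4-fold and 19.1-fold higher), and Col9a1 10 to 148 and 0 to 68 (at least 17.0-fold and 9.94-fold higher). The atorvastatin call of Col9a1 was lost without SCI + Atorvastatin replicate 1, 2, 3, 6 or 7. Such zeros stand beside the smaller number of genes with counts in the control libraries given above, and the part of that in them was not tested. The untested Col6a5 and Col6a6 were also at 0 in both controls and held 0 to 202 and 9 to 115 counts in the SCI mice.

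Counted mouse by mouse, 14 of 41 collagens were above both controls in all 7 SCI + Vehicle mice, where 24.8% of all tested genes were, and 23 of 41 in all 7 SCI + Atorvastatin mice, where 29.8% of all genes were. The 14 include Col4a5, Col6a3, Col9a1, Col10a1, Col22a1 and Col28a1, and the 23 include these except Col9a1, and also Col4a4. Such genes passed the filter on mean TPM only through an SCI group, so their places in the counts support nothing about the class. None of the 41 was below both controls in every mouse of an SCI group, where 10.7% of all genes were with vehicle and 14.2% with atorvastatin. For many collagens this could not occur, since no mouse can lie below a control at 0 counts. Of all 44 collagens, 16 were at 0 in 1 control and 6 in both. Both sets held 13 genes in common. Those above both controls in every mouse with atorvastatin but not with vehicle were Col1a1, Col1a2, Col3a1, Col4a1, Col4a4, Col4a6, Col5a1, Col5a2, Col6a2 and Col8a1, and Col9a1 was so with vehicle but not with atorvastatin.

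The comparison SCI + Atorvastatin vs. SCI + Vehicle asks what the drug changed after injury, with 7 mice on each side. No collagen was called by the study's rule of an unadjusted p below 0.001 with a change above 25%, where 0.087% of all tested genes were higher and 0.0186% lower. None had an adjusted p below 0.05 (edgeR, smallest 0.68), as was true of all 16091 genes, and DESeq2, limma and voom called 0 as well. At an unadjusted p below 0.05, 15 of 41 collagens were higher with atorvastatin, where 4.02% of all genes were, and 1 lower, Col19a1, where 3.01% of all genes were. Estimates were above 0 for 31 of 41, where 48.7% of all genes had such estimates. The median log2 fold change was 0.40 for the 41 collagens and -0.0014 for all genes. By class it was 0.41 for the fibrillar, 0.27 for the basement membrane and 0.40 for the other collagens, and -0.09 for the fibril-associated genes among these.

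The collagen with the smallest p was Col5a1, with a log2 fold change of 0.75 (SE 0.23, adjusted p = 0.68 in edgeR). Its lowest SCI + Atorvastatin mouse, at 52.9 CPM, lay just above the highest SCI + Vehicle mouse at 52.7, a full separation in CPM seen for 0.0559% of all genes and for no other collagen. In TPM the groups overlapped. The lowest treated mouse was at 12.14 TPM and the highest vehicle mouse at 12.85, with 5 of 7 treated mice above every vehicle mouse. Col8a2, a short-chain partner of Col8a1, followed with 8.63 to 32.01 CPM (median 14.1) against 2.11 to 12.5 (median 7.44) with vehicle, a log2 fold change of 0.99 (SE 0.31, adjusted p = 0.68 in edgeR), and 5 of 7 treated mice above every vehicle mouse. For Col4a1 the log2 fold change was 0.56 (SE 0.18, adjusted p = 0.68 in edgeR), with 4 of 7 treated mice above every vehicle mouse. Col3a1 had the largest estimate of the 41, 1.20 (SE 0.42), and Col1a1 and Col1a2 gave 0.84 (SE 0.38) and 0.80 (SE 0.32), all with an adjusted p of 0.68 or 0.693 in edgeR. These differences did not pass the correction for multiple tests.

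**Figure D4:**
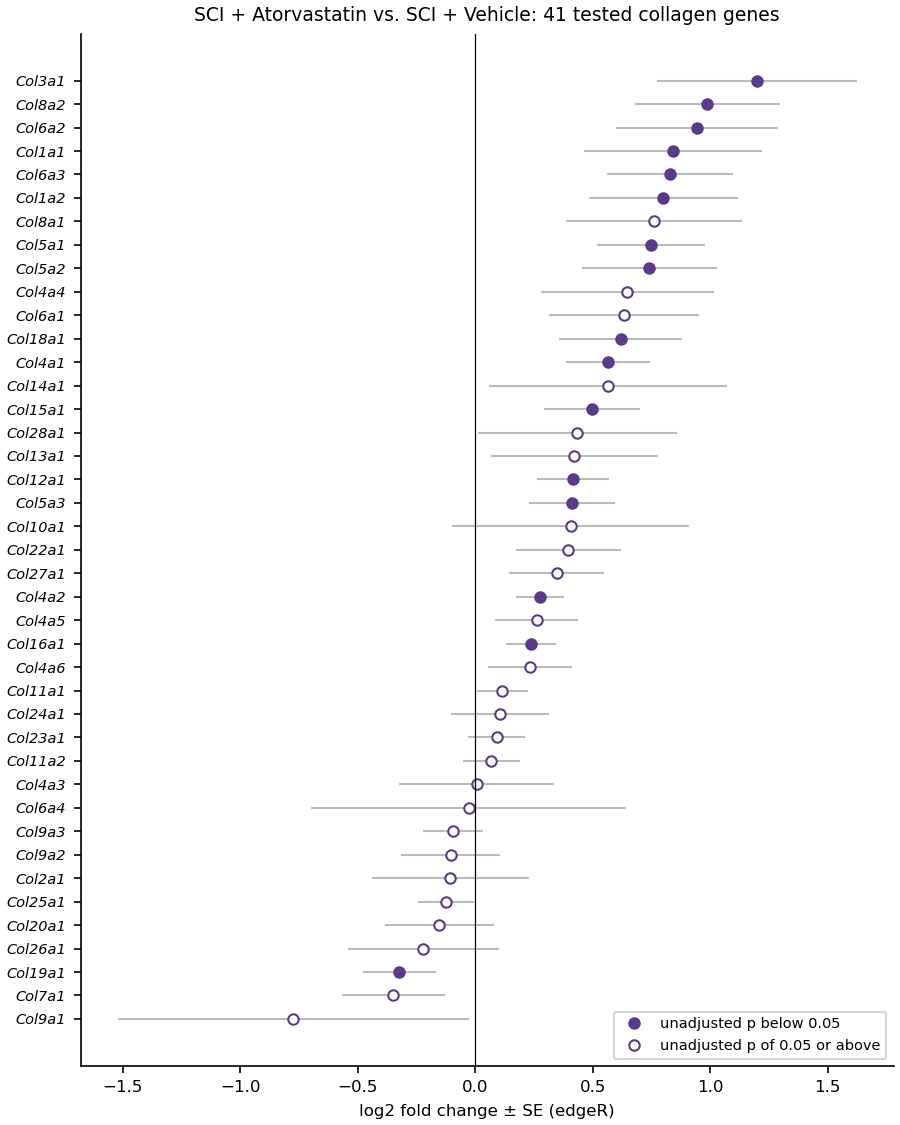
Log2 fold change (horizontal axis) of the 41 tested collagens between SCI + Atorvastatin (n = 7) and SCI + Vehicle (n = 7), ordered by size, with bars for the SE of edgeR. Filled points have an unadjusted p below 0.05 (15 higher, 1 lower); no gene passed the adjusted threshold.

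The spread within SCI + Vehicle bears on this comparison. Replicates 4 and 7 of that group had the lowest values of Col1a1 (58.1 and 47.7 CPM), Col1a2 (68.0 and 56.8), Col3a1 (22.6 and 12.9), Col5a1 (20.1 and 13.7) and Col6a1 (25.05 and 12.6). Without both, chosen after the data were seen, 9 in place of 15 collagens were higher at an unadjusted p below 0.05 and the median log2 fold change fell to 0.17, with 30 of 41 estimates above 0. Of all 16091 genes, 684 in place of 1132 had such a p in either direction, so the drop in that count was not particular to collagens. The fall in the collagen median stands beside a median absolute log2 fold change of all genes of 0.105 in place of 0.123. Leaving out SCI + Atorvastatin replicate 7, the mouse with the most collagen counts, also left 9, with a median of 0.25, and left 882 of all genes in either direction. Fibroblast markers other than collagens (10 genes, among them Pdgfra, Pdgfrb, Dpt and Twist1) were lowest in the same vehicle mice, summing to 165 CPM in replicate 4 and 95.1 in replicate 7 with 2 of the 10 at 0, against 250 to 314 in the other vehicle mice, 253 to 469 with atorvastatin and 204 and 167 in the controls. Replicate 7 was also lowest of the SCI mice for markers of endothelium (158.6 CPM), smooth muscle or pericytes (185.8), Schwann cells (221) and microglia or macrophages (891.1). It was highest for those of neurons (8244) and oligodendrocytes (1.977e+04). The part of fibroblast number, or of these other cells, in the collagen values was not tested. Skeletal muscle markers summed to 3495 CPM in SCI + Atorvastatin replicate 2, 697 in SCI + Vehicle replicate 3 and 228 in SCI + Atorvastatin replicate 4, against 45.3 to 71.2 in the other SCI mice. Without replicate 2 of atorvastatin and replicate 3 of vehicle, also chosen after the data were seen, 11 collagens were higher at an unadjusted p below 0.05 and the median was 0.32. In that fit 840 of all genes had such a p in either direction.

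Chains of 1 molecule are made in fixed proportion, and their genes were compared across the 14 SCI mice as log2(CPM + 1). In all 7 pairs were examined, with p from permutation and Benjamini-Hochberg adjustment over the 7 pairs. Col1a1 and Col1a2 had a Pearson r of 0.973 (permutation p = 1e-05, the smallest that 1e+05 permutations can give, adjusted 3.5e-05; Spearman rho 0.969, permutation p = 1e-05, adjusted 7e-05), and r = 0.959 without the 2 mice farthest from the median. Col6a1 and Col6a2 gave r = 0.972 (permutation p = 1e-05, adjusted 3.5e-05; rho 0.895, permutation p = 2e-05, adjusted 7e-05), and 0.940 without the 2 farthest. Col5a1 and Col5a2 gave r = 0.940 (permutation p = 3e-05, adjusted 7e-05; rho 0.824, permutation p = 0.00046, adjusted 0.00107), and 0.795 without the 2 farthest. These pairs held within each treatment, at r of 0.957 and 0.977, 0.948 and 0.984, and 0.815 and 0.941 for atorvastatin and vehicle.

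Across molecules, Col1a1 and Col3a1 had r = 0.876 (permutation p = 5e-05, adjusted 8.75e-05; rho 0.824, permutation p = 0.00061, adjusted 0.00107) and 0.721 without the 2 farthest. The head-to-head genes Col4a1 and Col4a2 had r = 0.732 (permutation p = 0.00214, adjusted 0.00277; rho 0.776, permutation p = 0.00148, adjusted 0.00207) and 0.715 without the 2 farthest, with 0.781 within atorvastatin and 0.356 within vehicle. Col1a1 and Col4a1, from different networks, had r = 0.739 (permutation p = 0.00237, adjusted 0.00277; rho 0.648, permutation p = 0.0144, adjusted 0.0168) and 0.641 without the 2 farthest, with 0.842 and 0.503 within groups. For Col8a1 and Col8a2, r was 0.691 (permutation p = 0.00681, adjusted 0.00681; rho 0.556, permutation p = 0.0422, adjusted 0.0422) but 0.419 (permutation p = 0.173) without SCI + Vehicle replicates 4 and 7, so that the pooled relation rests on those mice, while r was 0.793 within atorvastatin and 0.480 within vehicle. All pairs share the same libraries and scaling.

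**Figure D5:**
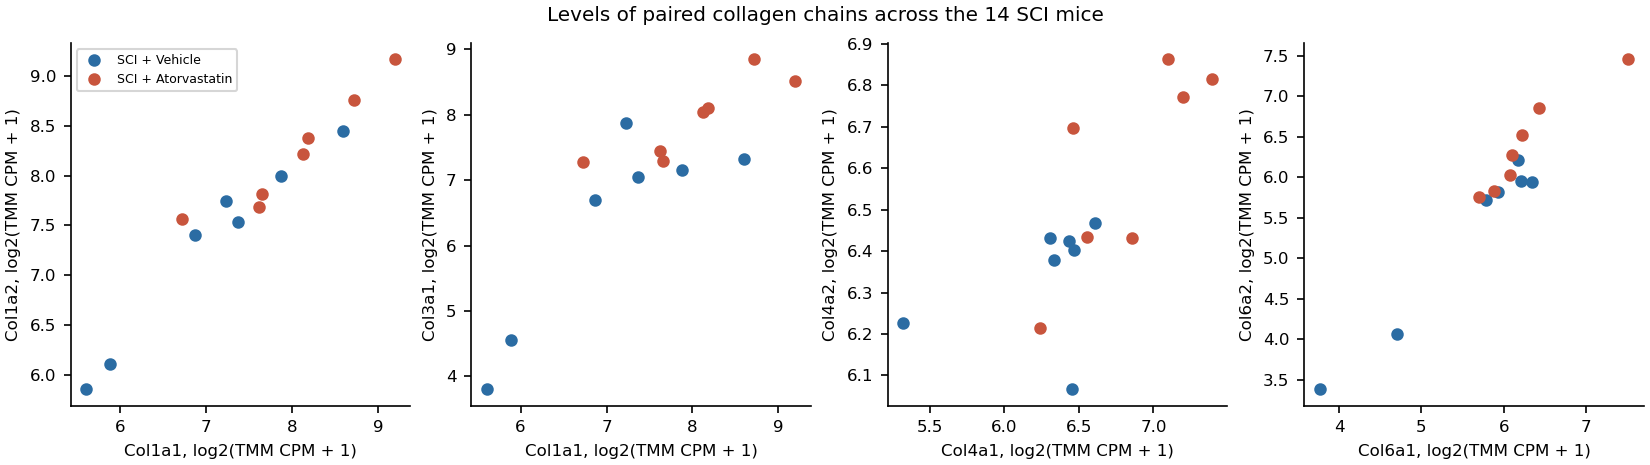
Levels of 4 collagen pairs across the 14 SCI mice, both axes as log2(CPM + 1), with a point per mouse coloured by treatment. Col1a1 with Col1a2 (r = 0.973) and Col6a1 with Col6a2 (r = 0.972) lie close to a line, and Col4a1 with Col4a2 (r = 0.732) is looser.

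As an example of the sequence before a collagen gene, the 250 bases before the RefSeq start of Col3a1 on GRCm38.p6 are shown, plus strand, 5′ to 3′; GENCODE places the start at the same base. Capitals mark matches, on either strand, to the TATA box letters TATAAA, to the letters CCAAT of the CCAAT box, and to the GC box letters GGGCGG.
Col3a1, chr1:45311288-45311537: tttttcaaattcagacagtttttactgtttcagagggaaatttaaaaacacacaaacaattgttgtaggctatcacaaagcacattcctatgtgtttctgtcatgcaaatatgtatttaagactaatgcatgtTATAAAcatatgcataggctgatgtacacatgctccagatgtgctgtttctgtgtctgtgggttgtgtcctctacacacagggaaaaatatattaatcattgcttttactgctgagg
Windows were matched for 35 of the 44 collagens, 38 windows in all. TATAAA was found in 13.2% of these and in 12.4% of all 32851 windows of the same length, CCAAT in 34.2% and 33.8%, and GGGCGG in 57.9% and 32.7%. The window of Col3a1 held the TATA box letters alone. A match is a description of letters and not of a bound site.

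Collagen also needs partners, and 69 genes in 5 lists were examined, of which 66 were tested. In SCI + Vehicle vs. Uninjured Control 15 were called higher and 0 lower, with 1 lower at an unadjusted p below 0.05, and with SCI + Atorvastatin against the controls 31 were higher and 0 lower, again with 1 lower at an unadjusted p below 0.05. Of all tested genes 19.9% and 24.9% were called higher, so that the vehicle share of the partners was near that of all genes. DESeq2 and limma also called 0 lower, and with all 3 groups in 1 fit 1 was lower with vehicle. Median log2 fold changes were 0.59 and 0.99, beside 0.17 and 0.21 for all genes. As for the collagens, voom with group weights called 0 of these in either comparison.

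Of the 19 genes of collagen folding and modification, 4 rose with vehicle and 5 with atorvastatin, shares near the 19.9% and 24.9% of all genes. P4ha3, a catalytic subunit of prolyl 4-hydroxylase, rose from 10.1 and 18.3 CPM to 36.9 to 53.7 (median 50.4) with vehicle and 39.3 to 61.0 (median 50.9) with atorvastatin, log2 fold changes of 1.71 (SE 0.28, adjusted p = 0.00144) and 1.83 (SE 0.26, adjusted p = 0.000406). Fkbp14, a prolyl isomerase of the endoplasmic reticulum that assists collagen folding, had 0 counts in both controls and 9.02 to 14.9 and 10.7 to 18.0 CPM in the SCI groups, at least 70.6-fold and 96.0-fold higher. It passed the filter on mean TPM only through an SCI group, so its calls support nothing about the list. In the list of procollagen processing and crosslinking, 4 of 12 and 5 of 12 rose, against the same 19.9% and 24.9%. Bmp1, the protease that removes the C-terminal propeptide of fibrillar procollagens, rose from 15.5 and 17.7 CPM to 23.4 to 55.7 (median 46.3) and 35.6 to 76.4 (median 56.8). Loxl2, a lysyl oxidase that crosslinks type IV collagen, was at 0 and 1.72 CPM in the controls and at 17.3 to 27.4 (median 22.1) and 23.4 to 34.9 (median 25.3) after injury. The mean TPM of Loxl2 did not pass 1 in every group, so its calls support nothing about the list either.

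Fibril organisers rose in 2 of 11 cases with vehicle, near the 19.9% of all genes, and in 7 of 11 with atorvastatin, where 24.9% of all genes did. Aspn, called with atorvastatin only, had 0 counts in both controls. It passed the filter on mean TPM only through an SCI group, so its call supports nothing about the list. Fmod (fibromodulin, a small proteoglycan on fibrils) had 7.28 and 31.2 CPM in the controls, 32.04 to 128 (median 113) with vehicle and 102 to 150 (median 124) with atorvastatin. Prelp, which anchors basement membranes to collagen, had 48.6 and 10.1, 72.3 to 130 (median 119) and 102 to 178 (median 126). Among basement membrane partners 3 of 14 and 8 of 14 rose, the former again near the 19.9% of all genes and the latter beside 24.9%. Agrn (agrin, a heparan sulfate proteoglycan) rose to nearly the same level in both SCI groups, from 61.9 and 72.4 CPM to 135 to 180 (median 158) and 129 to 187 (median 163), log2 fold changes of 1.22 (SE 0.13, adjusted p = 0.000165) and 1.23 (SE 0.16, adjusted p = 0.000278). Lamb2 (laminin β2) had 63.8 and 63.4 CPM in the controls, 63.0 to 144 (median 124) and 130 to 203 (median 145). Receptors rose in 2 of 10 and 6 of 10 cases, beside 19.9% and 24.9% of all genes. Itgb1, the β subunit of the collagen-binding integrins, had 108 and 77.4 CPM in the controls, 135 to 223 (median 159) and 162 to 224 (median 197). Its partner Itga2 was at 0 counts in both controls and at 43 to 183 and 31 to 116 counts after injury, at least 23.95-fold and 21.8-fold higher. Itga2 passed the filter on mean TPM only through an SCI group, so its calls support nothing about the receptors.

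Between the treatments, 1 of the 66 partners was called. Serpinh1 encodes HSP47, the chaperone that binds the collagen triple helix. It had 61.8 and 47.2 CPM in the controls, 23.8 to 63.7 (median 41.3) with SCI + Vehicle and 46.8 to 93.6 (median 68.2) with SCI + Atorvastatin, so that the treatment groups overlapped and each overlapped the controls. The log2 fold change of Serpinh1 between treatments was 0.76 (SE 0.19, adjusted p = 0.68 in edgeR), with an unadjusted p under the 0.001 threshold, and it was called in 10 of 24 alternative settings. Its unadjusted p ranged from 0.000121 to 0.0026 across these. Lamc3, the laminin γ3 chain, had the next smallest p, with 15.1 to 24.8 CPM (median 19.3) against 4.02 to 17.5 (median 12.6) with vehicle (log2 fold change 0.76, SE 0.24, adjusted p = 0.68 in edgeR). Of the 66, 61 estimates lay above 0, and 21 were higher and 1 lower at an unadjusted p below 0.05, where 48.7%, 4.02% and 3.01% of all genes were. Without SCI + Vehicle replicates 4 and 7, 11 were higher at that p and Serpinh1 was not called. Of all genes, 684 in place of 1132 had such a p in either direction.

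The labelled tissue was checked against its markers. Sums of 10 markers each of neurons (4827 to 8244 CPM in the SCI mice, 9290 or more in the controls) and of microglia or macrophages (891 to 1530 CPM in the SCI mice, 118 and 192 in the controls) were present in all libraries, as were those of astrocytes and oligodendrocytes. Liver markers reached 4495 and 831 CPM in the controls and at most 6.81 in the SCI mice, and Schwann cell markers 795 and 594 in the controls against 221 to 632 in the SCI mice. Adipose markers summed to 190 and 54.3 CPM in the controls, with 7 of 10 at 0 in both, and to 33.5 to 296 in the SCI mice. The part of such tissue in the control values of collagens was not tested.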

How the data were processed

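RNA of 16 spinal cord segments was sequenced from SMARTer Stranded Total RNA Pico libraries. Per the labels and the study's methods, the authors checked reads with FastQC 0.12.1, trimmed with Trimmomatic 0.38, aligned with STAR 2.5.4b to mm10 and quantified genes with RSEM 1.3.1. The deposited count values are whole numbers per gene, and the deposited TPM values are normalized by the authors for gene length and library. Samples were grouped by their labels. The 16091 genes whose mean TPM passed 1 in some group were tested on counts with edgeR 4.0.16 (TMM, quasi-likelihood, R 4.3.3), each comparison in a fit of its own 2 groups, with Benjamini-Hochberg adjustment. Calls required a change above 25% with an adjusted p below 0.05 against controls, or an unadjusted p below 0.001 between treatments. The tests are two-sided. Alternatives used DESeq2 1.42.0, limma 3.58.1 on log2(TPM + 1), voom, other filters and fits, a replicate block, and left-out mice. The fits were tested on simulated data. Shared read counts between near-identical genes cannot be separated further here.

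The collagens, their classes, the partner and marker lists and the genes named were chosen with earlier results of these data known. Genes described were those of a fixed list of 14 collagens, the 5 collagens called with the smallest p against controls, the 3 with the smallest p between treatments, the 5 with the highest TPM in controls and, of each partner list, the 2 with the smallest p in SCI + Vehicle vs. Uninjured Control. The 2 partners with the smallest p between treatments were added. Other collagens are named where a count falls on them and were chosen after their values were seen. Floors of 3 counts cover counting error only.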

Additional observations from a re-analysis of the deposited data

Results flagged for a closer look

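Among 82 sets of 7 mice (41 collagens in each SCI group), 7 held a mouse farther from the others than Dixon's 95% limit for 7 values allows, which chance gives in about 1 in 20 sets. Col2a1, the cartilage fibril chain, was at 13.65 CPM in SCI + Atorvastatin replicate 2, against 2.518 to 7.287 in the other 6 mice. Col4a1 was at 39.03 CPM in SCI + Vehicle replicate 7, below 78.29 to 96.37 in the others. Col6a1 reached 181.2 CPM and Col8a2 32.01 CPM in SCI + Atorvastatin replicate 7, against 51.11 to 85.1 and 8.626 to 15.75. Col6a4 and Col26a1 were highest in SCI + Vehicle replicate 1, at 7.558 CPM (others 0.08801 to 2.329) and 5.669 CPM (others 2.31 to 3.744). Col24a1, a minor fibrillar chain, was at 19.04 CPM in SCI + Atorvastatin replicate 6, against 9.951 to 12.71.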

How the results depend on the processing

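Against the Uninjured Control group, the number of collagens called higher depended on how the spread of the controls was modelled. With vehicle it was 12, and 7 with mean TPM above 1 in every condition, a filter that leaves out 10 of the 41 genes, and 0 with voom. Of all genes tested in these fits, 3195 of 16091, 1279 of 12559 and 15 of 16091 were called higher. With atorvastatin it was 20, and 0 with voom, where 4004 and 18 of all 16091 genes were called higher. Leaving out 1 mouse gave 11 to 24 with vehicle and 17 to 32 with atorvastatin, the highest without Uninjured Control replicate 1. Without 1 SCI mouse, 11 to 14 collagens were called higher with vehicle and 17 to 19 with atorvastatin. Of all 16091 genes, 2715 to 3172 and 3645 to 3741 were called higher in those fits. No collagen was called lower without 1 SCI mouse. The count of 0 lower is not claimed for fits that leave 1 control mouse, and nothing is drawn from the counts called higher in them. More of all genes were also called higher in such fits than in the main fit. In those without Uninjured Control replicate 2, estimates were above 0 for 30 of 41 collagens with vehicle and 31 with atorvastatin, in place of 34 and 35. Without Uninjured Control replicate 1 the log2 fold change of Col23a1 turned to 1.04 with vehicle and 1.16 with atorvastatin, and that of Col18a1 to 0.75 with atorvastatin. Without replicate 2 these values were -0.77, -0.66 and -1.23. Partners called higher with vehicle numbered 15, but 24 with DESeq2, 27 with all 3 groups in 1 fit, 27 with limma, 9 with the stricter filter and 0 with voom, and with atorvastatin 31 and 0 with voom. For all genes the vehicle counts were 3195, 4045, 4368, 3763, 1279 of 12559 and 15 in the same order. The next counts are of partners called higher, with vehicle and with atorvastatin. Nothing is drawn from those of fits that leave 1 control mouse. Without 1 mouse they were 11 to 25 and 28 to 44. Partners called lower were 1 with all 3 groups in 1 fit, and 0 to 2 with vehicle and 0 to 3 with atorvastatin without 1 mouse. Between treatments no collagen was called in any setting. The only partner called, Serpinh1, gave a count of 0 with all 3 groups in 1 fit, limma, voom, SCI + Vehicle replicates 4 and 7 left out or the 2 muscle-rich libraries left out, and 0 to 1 without 1 mouse. Collagens higher at an unadjusted p below 0.05 between treatments were 15, but 8 with all 3 groups in 1 fit, 9 without SCI + Vehicle replicates 4 and 7, and 9 to 17 without 1 mouse, the lowest without SCI + Atorvastatin replicate 7. In either direction, 1132 of all 16091 genes had such a p, 522 and 684 in those fits, and 848 to 1620 without 1 mouse. Partners at that p were 21, but 10 and 11 in those fits, and 13 to 28 without 1 mouse, the lowest without SCI + Atorvastatin replicate 2. Correlated pairs were 6 to 7. The cause of these shifts was not tested.

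The labels tie no replicate number to a litter, batch or day. Between the treatment groups, mice with the same number had correlations of -0.193 to 0.111 and never matched their own number best, and between SCI + Vehicle and the controls replicates 1 and 2 matched their own number best, at only 0.0139 and 0.00993, so the numbers were not taken as pairs. With the replicate block, 1 collagen, not among the 12 of the main fit, was called higher with vehicle and 0 with atorvastatin. Partners called were 0 in either, and 2 between treatments. Of all 16091 genes, this block left 23 called higher with vehicle, 0 with atorvastatin and 8 between treatments. Only 2 numbers are shared with the controls.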
